A study of Drosophila melanogaster with 12 samples.

Results

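The genes of interest were the 6 that encode the core proteins of the siRNA and miRNA pathways of the fly, namely AGO2, Dcr-2, r2d2, loqs, AGO1 and Dcr-1, chosen by symbol from the 17075 features of an RNA-seq count table, where each of the 6 had 1 row. They were compared in heads of Repo > hTDP-43 flies, which express human TDP-43 (hTDP-43) in glia under the Repo driver (S05 and S06), ELAV > hTDP-43 flies, which express it in neurons under the ELAV driver (S11 and S12), and hTDP-43 / + flies, which carry the same transgene without a Gal4 driver (S14 and S15). The RNA-seq flies were 8–10 days post-eclosion, and all strains had been backcrossed to w1118 (isoCJ1). The RNA-seq had no group without the transgene and no group with a driver alone. Each driver group thus differed from hTDP-43 / + in carrying a Gal4 driver as well as in expressing hTDP-43, and these cannot be told apart. The driver groups also differed from each other in the driver they carry. A separate small RNA-seq experiment compared heads of Repo / + flies, which carry the driver alone (S19, S20 and S21), with Repo > hTDP-43 heads (S22, S23 and S24), so that its control differs from that of the RNA-seq. Neither the number nor the sex of the flies behind a library is given in the sources used here, and the study text gives no age for the small RNA-seq flies. Since whole heads were used, fewer cells of a type and less RNA per cell cannot be told apart.

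In Drosophila the siRNA pathway starts with double-stranded RNA from viruses, transposons or hairpin transcripts, which Dicer-2 (Dcr-2) cuts into short duplexes. R2D2, a double-stranded RNA binding partner of Dicer-2, helps to load these duplexes into Argonaute-2 (AGO2), whose RISC complex slices matching transcripts, and in somatic tissue such as the head this pathway is known for repressing transposons and viruses. The miRNA pathway uses a parallel pair, Dicer-1 (Dcr-1), which cuts miRNA precursors, and Argonaute-1 (AGO1), which binds most mature miRNAs. Loquacious (loqs) serves both pathways through different isoforms, which a count per gene does not separate.

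The libraries held 22476024 to 41150009 counts for RNA-seq and 31074082 to 37736599 for small RNA-seq. Levels are given as CPM (counts per 1000000) with library sizes scaled by TMM over all 6 libraries, and a difference as a log2 fold change with its standard error (SE) or 95% confidence interval from edgeR's quasi-likelihood test, adjusted by Benjamini-Hochberg over all tested features. The control libraries S14 and S15 stood further apart (chi-square per degree of freedom 37.6) than the Repo > hTDP-43 (6.28) or ELAV > hTDP-43 libraries (10.6). Of all tested features, 3761 of 13507 (27.8%) passed an adjusted p of 0.05 with Repo > hTDP-43 against hTDP-43 / +, 120 of 12942 (0.927%) with ELAV > hTDP-43 against hTDP-43 / +, and 3294 of 13699 (24%) between the drivers. Without S05, S06 or S14 the Repo count was 552, 1018 or 6421, and without S11, S12, S14 or S15 the ELAV count was 32, 38, 1056 or 382. The share of higher calls was 54.9% with Repo > hTDP-43, against 75.1% when scaled by library size alone and 70.6% by upper quartile, and 44.6% between the drivers, against 65.5% and 63.9%. Library size alone moved the median of all features by 0.17 (log2) with Repo > hTDP-43 and by 0.14 between the drivers, so the changes below are relative to the median feature. All 8 neuronal and all 8 glial markers of lists used to check the tissue were detected in every library.

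None of the 6 genes passed the test in any of the 3 comparisons. With Repo > hTDP-43 the count was 0 of 6 at an adjusted p of 0.05, where 27.8% of all tested features passed, and 1 of 6 (AGO1) at an unadjusted p of 0.05, where 41.8% did. With ELAV > hTDP-43 it was 0 of 6 at both levels, against 0.927% and 8.72% of all features, and between the drivers it was 0 of 6 and 2 of 6 (Dcr-2 and loqs), against 24% and 38.5%. DESeq2, which called 28.8%, 2.43% and 24.7% of all features in these comparisons, called 0 of 6 in each, with 1, 0 and 2 at an unadjusted p of 0.05. Over the 6 genes the median of the log2 fold changes was -0.041 for the glial driver, -0.037 for the neuronal driver and -0.059 between them, beside 0.0023, 0.00056 and 0.00056 over all features. The 95% intervals of the 6 genes together lay between folds of 0.713 and 1.21 with Repo > hTDP-43 and between 0.768 and 1.5 with ELAV > hTDP-43.

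**Figure D1:**
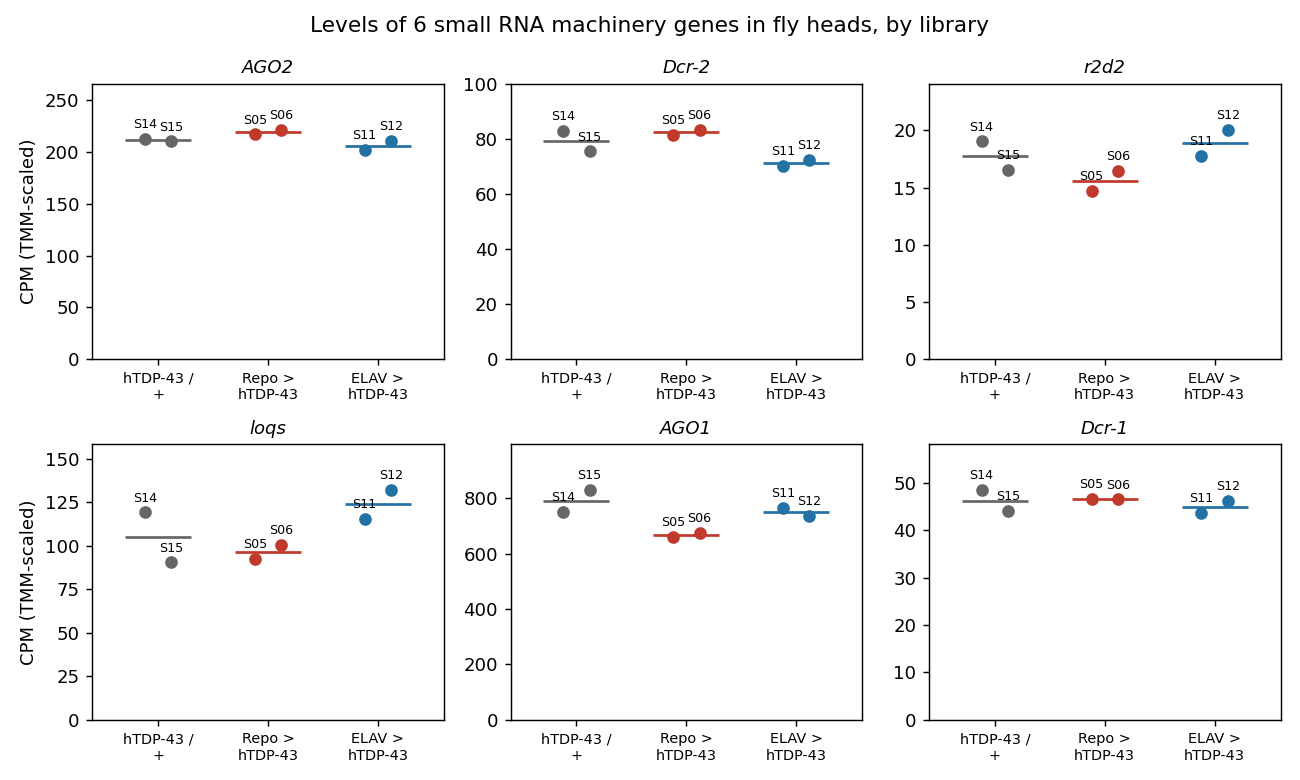
Levels of the 6 genes in each RNA-seq library, in TMM-scaled CPM, with a point for each library and a line at the mean of the 2 libraries of a genotype. The vertical axes start at 0 and differ between genes. AGO1 lies lower in both Repo > hTDP-43 libraries (659 and 676 CPM) than in the other 4, and the control libraries S14 and S15 lie far apart for loqs (119 and 90.4 CPM).

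AGO2, the slicing Argonaute of the siRNA pathway, was present at 212 and 210 CPM in S14 and S15, at 217 and 222 in S05 and S06, and at 202 and 211 in S11 and S12. The Repo > hTDP-43 libraries were thus the highest and did not overlap the controls, and the difference was 0.066 on the log2 scale (SE 0.076, adjusted p = 0.554), with a 95% interval from 0.922 to 1.19 as a fold. Its size moved with the scaling, to 0.23 by library size (adjusted p = 0.0604) and 0.19 by upper-quartile scaling (adjusted p = 0.107). The ELAV > hTDP-43 libraries overlapped the controls (log2 fold change -0.034, SE 0.088, adjusted p = 0.961, or 0.0044 by library size alone), with a fold between 0.846 and 1.13. In order, the mean level was 219 ± 3.32 CPM with Repo > hTDP-43, 211 ± 1.44 in hTDP-43 / + and 206 ± 6.30 with ELAV > hTDP-43 (SD, n = 2), and neither neighbouring pair passed the test. In a later annotation, FlyBase Release 6 as held by RefSeq, the end of AGO2 overlaps its neighbour CG7739, and the strand setting of the counting is not given in the sources used here.

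Dcr-2, the dicer that makes siRNAs, was present at 82.9 and 75.6 CPM in S14 and S15, at 81.5 and 83.5 in S05 and S06, and at 70.2 and 72.4 in S11 and S12. Both ELAV > hTDP-43 libraries were below all others, while the Repo > hTDP-43 libraries lay beside the higher control and overlapped the controls. Against hTDP-43 / + the log2 difference was 0.071 (SE 0.083, adjusted p = 0.561) with Repo > hTDP-43, a fold of 0.914 to 1.21, and -0.15 (SE 0.097, adjusted p = 0.774) with ELAV > hTDP-43, a fold of 0.768 to 1.06. By library size the former was 0.24 (adjusted p = 0.116). The mean was 82.5 ± 1.39 CPM with Repo > hTDP-43, 79.3 ± 5.21 in hTDP-43 / + and 71.3 ± 1.57 with ELAV > hTDP-43 (SD, n = 2).

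r2d2, which encodes the loading partner of Dicer-2, had the lowest counts of the 6, between 394 and 633 a library. Its level was 19.04 and 16.6 CPM in S14 and S15, 14.7 and 16.4 in S05 and S06, and 17.8 and 20.1 in S11 and S12. The Repo > hTDP-43 libraries were the lowest, with S06 just under S15, and the ELAV > hTDP-43 libraries overlapped the controls. This gave a log2 fold change of -0.18 in Repo > hTDP-43 heads (SE 0.13, adjusted p = 0.324), a fold of 0.713 to 1.09, and of 0.089 in ELAV > hTDP-43 heads (SE 0.13, adjusted p = 0.92), a fold of 0.854 to 1.32. By library size the Repo value was -0.018 (adjusted p = 0.94). The ELAV value turned to -0.015 without S12 and -0.0068 without S15. The mean was 18.9 ± 1.64 CPM with ELAV > hTDP-43, 17.8 ± 1.75 in hTDP-43 / + and 15.6 ± 1.23 with Repo > hTDP-43 (SD, n = 2). In Release 6, r2d2 overlaps its neighbour cdc14, so its reads may not all be its own.

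loqs, which encodes the double-stranded RNA binding partner of Dicer-1 and, in another isoform, of Dicer-2, differed between the control libraries. Its level was 119 and 90.4 CPM in S14 and S15, 92.5 and 100 in S05 and S06, and 115 and 132 in S11 and S12. The controls differed by 27.4% of their mean, against 8.22% for the Repo > hTDP-43 and 13.2% for the ELAV > hTDP-43 libraries, so each driver group overlapped them. On the log2 scale Repo > hTDP-43 differed from them by -0.10 (SE 0.13, adjusted p = 0.596), which turned to 0.056 by library size and 0.016 by upper-quartile scaling, and ELAV > hTDP-43 by 0.24 (SE 0.15, adjusted p = 0.758). Which control library was kept decided the call. Without S15 the Repo value was -0.29 (adjusted p = 0.00959) and without S14 it was 0.070, whereas without S14 the ELAV value was 0.45 (adjusted p = 0.00796) and without S15 it was 0.058. In Release 6 an antisense RNA overlaps loqs.

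AGO1, the Argonaute of the miRNA pathway, was present at 751 and 828 CPM in S14 and S15, at 659 and 676 in S05 and S06, and at 765 and 735 in S11 and S12. Both Repo > hTDP-43 libraries were below the other 4, and the ELAV > hTDP-43 libraries overlapped the controls. Glial expression gave a log2 fold change of -0.23 (SE 0.094, unadjusted p = 0.0461, adjusted p = 0.113), with a fold between 0.727 and 0.996, and neuronal expression -0.074 (SE 0.094, adjusted p = 0.898), with a fold between 0.814 and 1.11. The Repo value passed the threshold in a fit of all 6 libraries (-0.24, adjusted p = 0.0475) and without S14 (-0.34, adjusted p = 0.00144), and was -0.064 with library size alone (adjusted p = 0.533). The ELAV value was 0.00036 without S15. Over the 11 alternatives the adjusted p for Repo > hTDP-43 ran from 0.00144 to 0.533, and each gave a negative value.

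The neuronal markers moved in the same direction as AGO1 in these libraries. Of all tested features, 12.5% were lower and 15.3% higher with Repo > hTDP-43 against hTDP-43 / + at an adjusted p of 0.05. Of 8 neuronal markers, 6 were lower in this test, among them nSyb, Syt1 and brp, and 0 were higher. The median log2 fold change of the list was -0.47. Their summed level was 5976 and 6226 CPM in S05 and S06, against 7946 to 9285 in the other 4 libraries, with no marker at 0. Other marker lists moved in the same comparison. Of 8 photoreceptor markers 3 were lower and 0 higher (median -0.27), of 8 glial markers 3 were lower and 2 higher (median -0.18), of 6 fat body markers 4 were lower and 0 higher (median -0.46), and of 5 hemocyte markers 3 were higher and 0 lower (median 1.06). The part of these lists in the AGO1 difference was not tested.

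Dcr-1, the dicer of the miRNA pathway, had close TMM-scaled levels in the 3 genotypes. It was at 48.4 and 44.0 CPM in S14 and S15, 46.5 in both S05 and S06, and 43.7 and 46.1 in S11 and S12, so all 3 genotypes had means between 44.9 and 46.5. Both driver groups lay within or beside the range of the controls. For the glial driver the log2 fold change was 0.022 (SE 0.086, adjusted p = 0.873; 0.19 by library size, adjusted p = 0.222), a fold of 0.879 to 1.17, and for the neuronal driver -0.040 (SE 0.10, adjusted p = 0.961), a fold of 0.821 to 1.15. The sign turned without S15 in the former (-0.039) and without S14 in the latter (0.028).

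**Figure D2:**
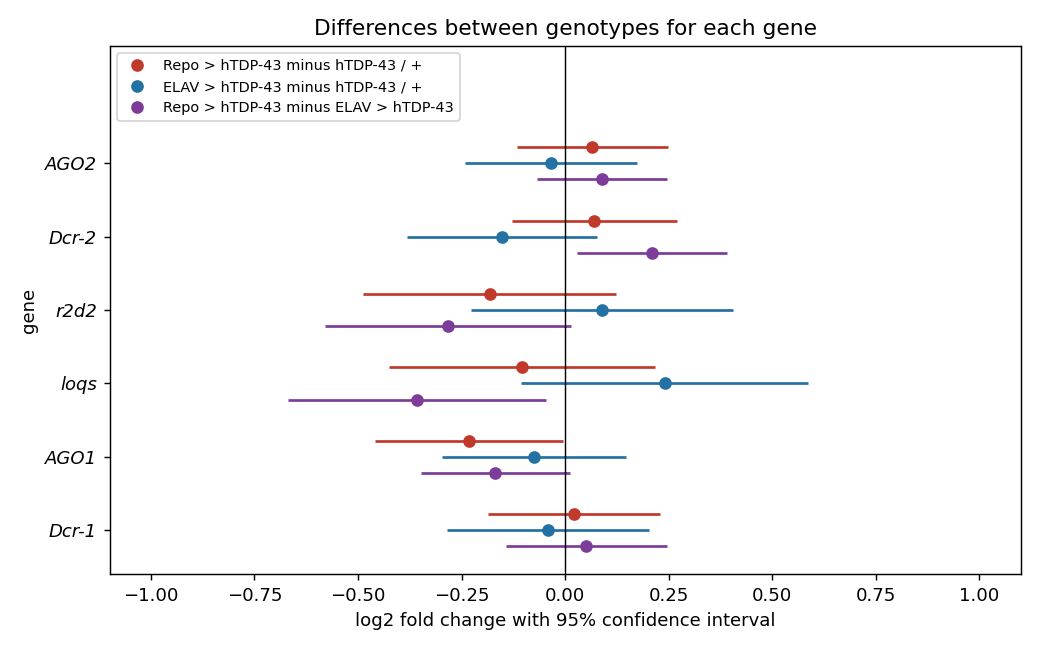
Log2 fold change of each gene (points) with its 95% confidence interval (bars) in the 3 comparisons between genotypes. The intervals cover 0 in all but 3 cases, which are AGO1 with Repo > hTDP-43 against hTDP-43 / + (-0.23) and, between the drivers, Dcr-2 (0.21) and loqs (-0.36), and none of these passed the adjusted threshold of 0.05.

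A further comparison, fitted to all 6 libraries, set Repo > hTDP-43 against ELAV > hTDP-43, which carry the same transgene under different drivers. The levels of all 6 genes did not overlap between the Repo > hTDP-43 and ELAV > hTDP-43 libraries, as was so for 71.2% of all tested features. Against hTDP-43 / +, levels did not overlap for 3 of 6 genes with Repo > hTDP-43 (AGO2, r2d2 and AGO1), beside 69% of all features, and for 1 of 6 with ELAV > hTDP-43 (Dcr-2), beside 37.1%. Dcr-2 was 1.16 times as high with Repo > hTDP-43 as with ELAV > hTDP-43 (log2 fold change 0.21, SE 0.078, unadjusted p = 0.028, adjusted p = 0.0872). loqs was 0.781 times as high (-0.36, SE 0.13, unadjusted p = 0.0295, adjusted p = 0.0903). r2d2 gave -0.28 (SE 0.13, adjusted p = 0.147), AGO1 -0.17 (adjusted p = 0.155), AGO2 0.089 (adjusted p = 0.367) and Dcr-1 0.051 (adjusted p = 0.69).

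The calls for Dcr-2 and loqs in this comparison lay close to the threshold. In a fit of the 4 driver libraries alone Dcr-2 gave 0.23 (adjusted p = 0.0147) and loqs -0.33 (adjusted p = 0.0137). Both also passed without S14, with adjusted p of 0.0276 for Dcr-2 and 0.00746 for loqs, and without S15, with 0.0215 and 0.00851. Dcr-2 passed by library size, by upper-quartile scaling and with a minimum of 10 counts in every library, and AGO2 with library size alone (0.23, adjusted p = 0.048). Over the 13 alternatives the adjusted p ran from 0.0147 to 0.306 for Dcr-2, from 0.00746 to 0.380 for loqs and from 0.048 to 0.674 for AGO2.

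Ratios of read counts between paired genes within a library do not depend on how the libraries are scaled. AGO2 and AGO1 are the Argonautes of the siRNA and miRNA pathways, and the count ratio of AGO2 to AGO1 was 0.329 and 0.328 in S05 and S06, 0.264 and 0.287 in S11 and S12, and 0.282 and 0.254 in S14 and S15. Both Repo > hTDP-43 libraries were thus above the other 4. Their ratio was 1.23 times that of hTDP-43 / +, a difference of 0.30 (log2), while the ELAV > hTDP-43 libraries overlapped the controls with a difference of 0.039. For comparison, the ratio of a feature to AGO1 did not overlap between groups for 69.2% of all features with Repo > hTDP-43, 35.1% with ELAV > hTDP-43 and 70% between the drivers.

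r2d2 and Dcr-2 encode the partners of the siRNA loading complex, and their ratio separated all 3 genotypes. The count ratio of r2d2 to Dcr-2 was 0.1802 and 0.197 in S05 and S06, 0.230 and 0.219 in S14 and S15, and 0.253 and 0.277 in S11 and S12. Repo > hTDP-43 lay below and ELAV > hTDP-43 above the controls, by -0.25 and 0.24 on the log2 scale, and the drivers differed by -0.49. The ratio to Dcr-2 did not overlap between groups for 69.9% of all features with Repo > hTDP-43, 47.8% with ELAV > hTDP-43 and 77.4% between the drivers.

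The ratio of Dcr-2 to Dcr-1 gave a smaller spread, with 1.75 and 1.80 in S05 and S06, 1.71 and 1.72 in S14 and S15, and 1.61 and 1.57 in S11 and S12. It was higher with Repo > hTDP-43 by 0.049 and lower with ELAV > hTDP-43 by 0.11 (a log2 difference of -0.11), and no groups overlapped, as was so for the ratio to Dcr-1 of 67.8%, 35.8% and 71.8% of all features. The ratio of r2d2 to loqs was 0.159 and 0.164 in S05 and S06, 0.160 and 0.183 in S14 and S15, and 0.154 and 0.152 in S11 and S12, so Repo > hTDP-43 overlapped the controls, and the ratio to loqs did not overlap for 51.2%, 38.7% and 73.1% of all features. In an exact two-sided permutation test with 2 libraries against 2, the smallest possible p is 0.333, which every pair of groups that did not overlap reached and which cannot pass 0.05. The ratios are therefore given as descriptions of these 6 libraries.

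**Figure D3:**
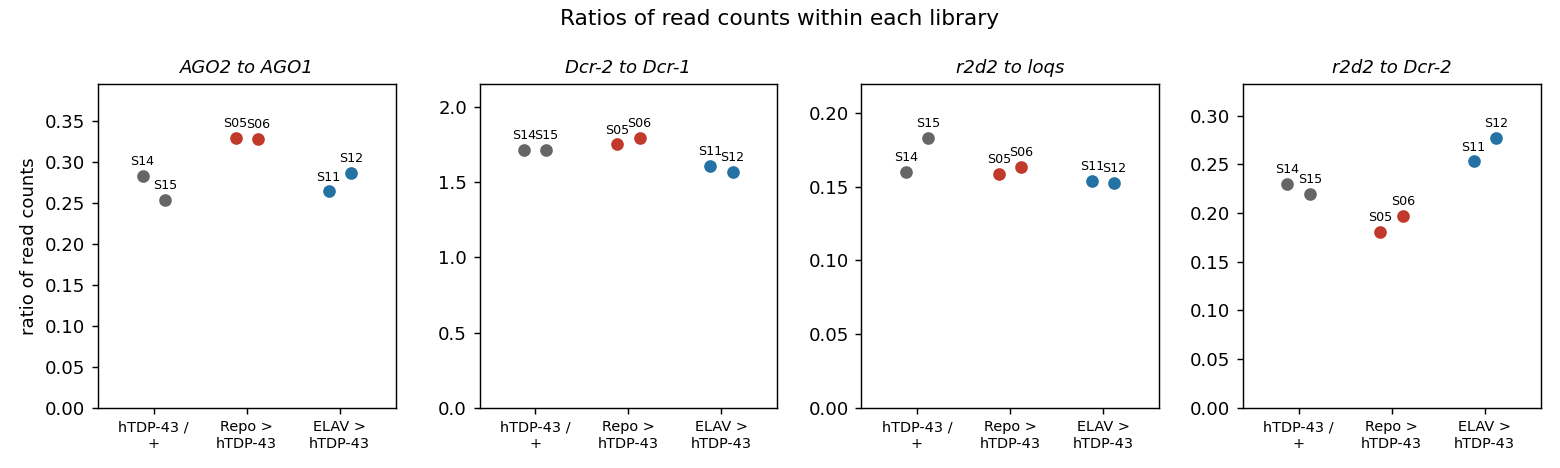
Ratio of read counts between 2 genes in each RNA-seq library, with a point for each library and the vertical axes starting at 0. The ratio of AGO2 to AGO1 is highest in both Repo > hTDP-43 libraries (0.329 and 0.328), and that of r2d2 to Dcr-2 runs from 0.1802 in S05 to 0.277 in S12.

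The genes whose levels were most like those of each member were sought among 11202 other genes with a mean of at least 1 CPM, by Pearson's r of log2 CPM over the 6 libraries, as a description. With 6 libraries in 3 genotypes, high values arise for many genes. For AGO1, 1214 genes had an r above 0.9, led by Ptp99A and Zif (r = 0.999 and 0.998). For the other members 65 (Dcr-1) to 220 (r2d2) genes did. The leading genes were CR45804 and CR44021 for AGO2, CG12182 and Arpc4 for Dcr-2, CR46271 and exd for r2d2, Su(P) and TM9SF3 for loqs, and CG10562 and TAF1C-like for Dcr-1, with r between 0.985 and 0.999.

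Beyond the 6 genes, 34 of 39 genes on lists of other small RNA pathway steps were in the table, and all 34 were tested. With Repo > hTDP-43 against hTDP-43 / +, 2 were higher and 3 lower (5 of 34, or 14.7%, beside 27.8% of all features, 15.3% higher and 12.5% lower). DESeq2 called 6 of 34, beside 28.8% of all features. With ELAV > hTDP-43, 0 of 34 passed, beside 0.927% of all features. At an unadjusted p of 0.05, 2 did (Vago and Adar), beside 8.72%, and DESeq2 called 0, beside 2.43%. Between the drivers 2 passed (5.88%), beside 24% of all features. The medians of the 34 log2 fold changes were -0.12 and -0.043 for the glial and neuronal drivers.

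The genes of most steps did not pass the test in any comparison. This held for 6 genes of nuclear miRNA processing and export, among them drosha and pasha, which encode the complex that cuts primary miRNA transcripts, for 5 chaperones that help to load RISC, among them Hsp83, for 3 genes of small RNA end modification and trimming, among them Hen1, which methylates siRNA ends, and for 10 silencing and decay effectors, among them gw, which encodes the GW182 partner of AGO1. At an unadjusted p of 0.05 in edgeR with Repo > hTDP-43, 1 of the 6 processing genes passed and none of the chaperone, end modification or decay genes did, beside 41.8% of all features. DESeq2 called 0 of these 24, beside 28.8% of all features with Repo > hTDP-43. With Repo > hTDP-43 their log2 fold changes ran from -0.29 to 0.10, -0.32 to 0.024, -0.092 to 0.53 and -0.18 to -0.029, list by list. The signs of the 10 effectors depended on the scaling, with 10 of 10 below 0 here (median -0.12) and 9 of 10 above 0 by library size (median 0.047).

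Among 6 RISC-associated factors only vig, which encodes an RNA binding component of the AGO2 complex, passed in edgeR. Fmr1, the fly FMRP gene, missed the threshold there (-0.34 with Repo > hTDP-43, adjusted p = 0.056) and passed in DESeq2 (-0.36, adjusted p = 0.0244). The level of vig was 214 and 226 CPM in S05 and S06, 319 and 321 in S11 and S12, and 284 and 336 in S14 and S15. Both Repo > hTDP-43 libraries were below the other 4. The difference was -0.48 on the log2 scale against hTDP-43 / + (SE 0.11, adjusted p = 0.022) and -0.54 against ELAV > hTDP-43 (SE 0.091, adjusted p = 0.00538). The former did not pass without S05 (adjusted p = 0.211) or S06 (0.148), nor did the latter without S05 (0.0658), S06 (0.0659) or S12 (0.0618).

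All 3 genes of a list of other double-stranded RNA binding or Dcr-2-dependent genes passed with Repo > hTDP-43, in different directions, beside 27.8% of all features. Adar, the adenosine deaminase that edits double-stranded RNA in neurons, was at 304 and 319 CPM in S05 and S06 against 439 and 394 in S14 and S15 (log2 fold change -0.41, SE 0.087, adjusted p = 0.0188). Vago, an antiviral gene whose induction depends on Dcr-2, was at 7.36 and 7.38 CPM against 10.3 and 13.4 (-0.68, SE 0.18, adjusted p = 0.0365). Neither fall passed with library size alone (adjusted p = 0.0999 and 0.0737) or upper-quartile scaling (0.0598 and 0.0587). Without S05 or S06 they did not pass either (0.2404 and 0.174 for Adar, 0.202 and 0.186 for Vago), and Vago did not without S15 (0.0651). As with AGO1, the fall of Adar stood beside lower neuronal markers and the other marker lists that moved, whose part in it was not tested, nor was their part in the fall of vig.

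blanks, which encodes a double-stranded RNA binding protein of the testis, was at 75 and 52 counts in S05 and S06, 20 and 2 in S11 and S12, and 9 and 13 in S14 and S15. The Repo > hTDP-43 libraries were the highest, with a log2 fold change of 2.81 against hTDP-43 / + (SE 0.37, adjusted p = 0.00545) and 2.70 against ELAV > hTDP-43 (SE 0.65, adjusted p = 0.0222). The first did not pass without S05 (adjusted p = 0.0512). The second moved to 4.80 without S11 (adjusted p = 0.00966) and did not pass without S05 (0.111), S06 (0.0981) or S12 (1.98, adjusted p = 0.0538). Of 6 testis markers, 5 were higher with Repo > hTDP-43 against hTDP-43 / +, beside 15.3% of all features. Against ELAV > hTDP-43, 0 of 6 were called (median log2 fold change 1.16). Their summed level was 62.5 and 35.4 CPM in S05 and S06 against 7.22 to 27.9 in the other 4 libraries. The testis markers Mst98Ca, Mst98Cb and dj were among those called against hTDP-43 / +, bam was not, and 1 marker was at 0 in each of S11 and S15. Of 4 accessory gland markers, 3 were also higher against hTDP-43 / +, and 0 were called against ELAV > hTDP-43 (median 0.55). The male markers roX1 and roX2 were not called in either comparison (median -0.24 against hTDP-43 / + and -0.084 against ELAV > hTDP-43). Of 3 female markers (Yp1, Yp2 and Yp3), 1 was lower and 0 higher against hTDP-43 / + (median -0.029). Against ELAV > hTDP-43, 3 were lower and 0 higher (median -1.29). The part of these lists in the blanks difference was not tested.

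**Figure D4:**
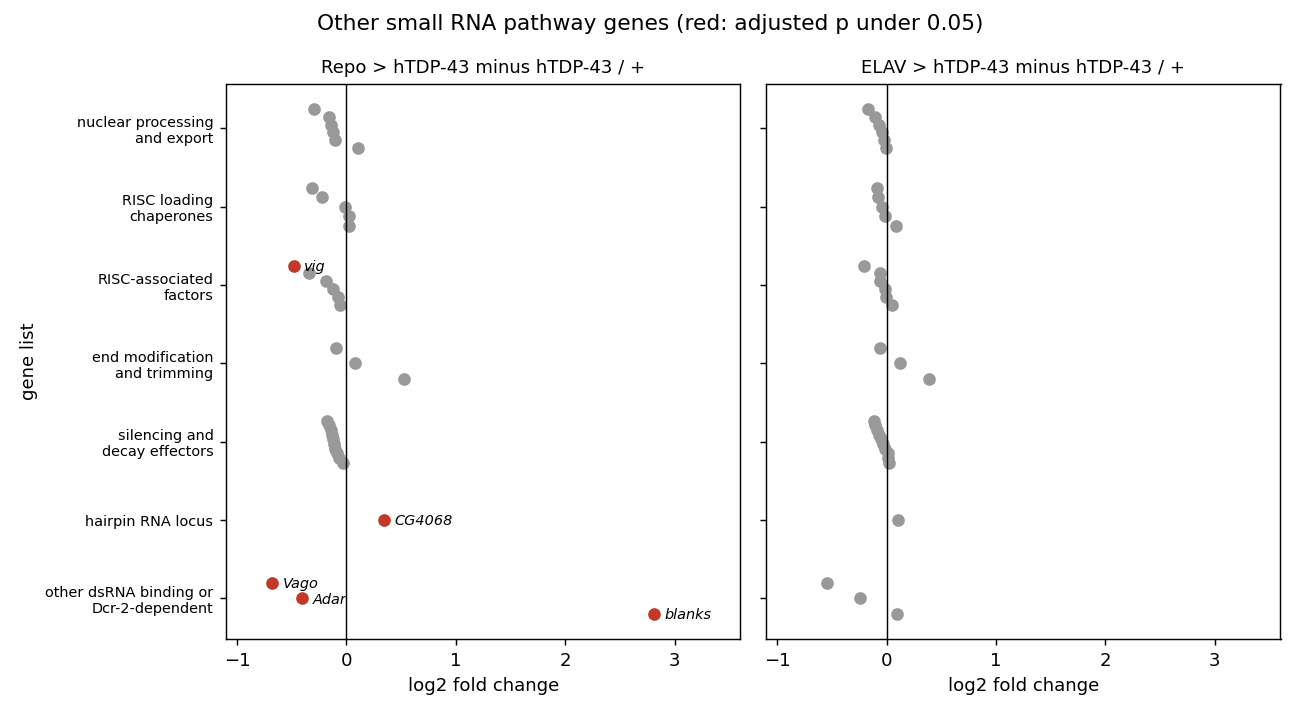
Log2 fold change of 34 other small RNA pathway genes by list, with Repo > hTDP-43 (left) and ELAV > hTDP-43 (right) against hTDP-43 / +, a point for each gene and the called genes named in red. With Repo > hTDP-43 vig, Adar and Vago are lower and blanks and CG4068 (CG44774) higher, and no gene is called with ELAV > hTDP-43.

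Hairpin transcripts are a natural substrate of Dcr-2, and of 6 hairpin loci known to give endogenous siRNAs, only CG4068, which the table lists under its later name CG44774, had a row in the RNA-seq table. Its level was 175 and 171 CPM in S05 and S06, 150 and 145 in S11 and S12, and 129 and 145 in S14 and S15. Both Repo > hTDP-43 libraries were above the other 4. Against hTDP-43 / +, Repo > hTDP-43 gave 0.34 (log2, SE 0.095, adjusted p = 0.0412) and ELAV > hTDP-43 0.11 (adjusted p = 0.86), and the drivers differed by 0.23 (SE 0.081, adjusted p = 0.0753). The first did not pass without S05 (adjusted p = 0.306) or S06 (0.265).

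In the small RNA libraries the exon of CG44774 with the most counts, a row shared by 8 transcripts, held 8523, 7634 and 5423 counts in S19, S20 and S21 (Repo / +) and 17257, 18678 and 16785 in S22, S23 and S24 (Repo > hTDP-43). In TMM-scaled CPM the row held 225, 281 and 155 in S19, S20 and S21 and 363, 580 and 502 in S22, S23 and S24. The groups did not overlap, as for 27.1% of tested rows, and all 3 Repo > hTDP-43 libraries were above the controls. Their log2 fold change was 1.13 (SE 0.24, adjusted p = 0.0155), where 9.04% of 28127 tested rows passed. It did not pass without S21 (0.92, adjusted p = 0.0559) or S23 (0.98, adjusted p = 0.0816). Its length and strand were not analysed here, since the counts are not divided by either.

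Small RNAs that map to the 6 genes themselves were few. Exon rows, or intron rows, with identical counts within a gene were counted once. Such rows arise where transcripts share an exon or intron, and also where separate introns hold no counts. This left 64 exon and intron rows for the 6 genes, which is not the number of their separate exons and introns. Of these, 15 passed the filter on low counts, all of them exon rows. None of these 15 passed the test, beside 9.04% of all rows, with 2 at an unadjusted p of 0.05 (19% of all rows) and 0 with DESeq2 (4.77%). Rows with nearly the same counts were kept apart, so the 15 may share reads and are not 15 independent tests. For AGO2, a tested row held 37, 30, 34, 49, 21 and 24 counts in S19 to S24 and another 37, 30, 34, 49, 20 and 23. For loqs no row passed the filter, and the exons of its transcript with the most counts held 12, 9 and 11 counts in Repo / + and 22, 16 and 10 in Repo > hTDP-43.

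AGO1 held the most of the 6, nearly all on 1 exon, with 1290, 925 and 1100 counts in S19, S20 and S21 and 1283, 1331 and 1274 in S22, S23 and S24. After scaling the groups overlapped, at 0.096 on the log2 scale (SE 0.16, adjusted p = 0.802). This exon held 90.4% to 94.3% of the exon counts of its transcript, and in Release 6 the span of AGO1 also holds other genes, mRpL53 and CG33155.

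The AGO2 exon with the most small RNA counts held 147, 167 and 172 in S19, S20 and S21 and 237, 280 and 306 in S22, S23 and S24. The raw counts did not overlap, but in CPM S22 (4.99) fell below S20 (6.15). Fitted over the 6 libraries, the change was 0.61 on the log2 scale (SE 0.25, unadjusted p = 0.036, adjusted p = 0.218), and without S22 it was 0.88 (adjusted p = 0.0209). The other tested AGO2 exon rows ran from -0.35 to 0.39.

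For r2d2 the tested exon held 80, 96 and 107 counts in S19, S20 and S21 and 83, 112 and 127 in S22, S23 and S24 (log2 fold change 0.047, SE 0.30, adjusted p = 0.956). For Dcr-2 it held 24, 21 and 23 against 42, 32 and 24 (0.34, SE 0.21, adjusted p = 0.443). The 3 tested Dcr-1 exons gave 0.14, 0.45 and 0.74, and the last was the other row with an unadjusted p under 0.05 (0.0294, adjusted p = 0.191), from 9, 8 and 13 counts against 27, 19 and 11. At these depths changes in the small RNAs on Dcr-2, Dcr-1 and loqs rest on few counts. Summed over the exons of 1 transcript, Dcr-2 held 28 to 39 counts in Repo / + and 38 to 67 in Repo > hTDP-43, and Dcr-1 44 to 61 and 59 to 107, so the counts of the groups overlapped for both genes. In CPM the groups did not overlap with TMM scaling and overlapped by library size, and these sums were not tested.

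**Figure D5:**
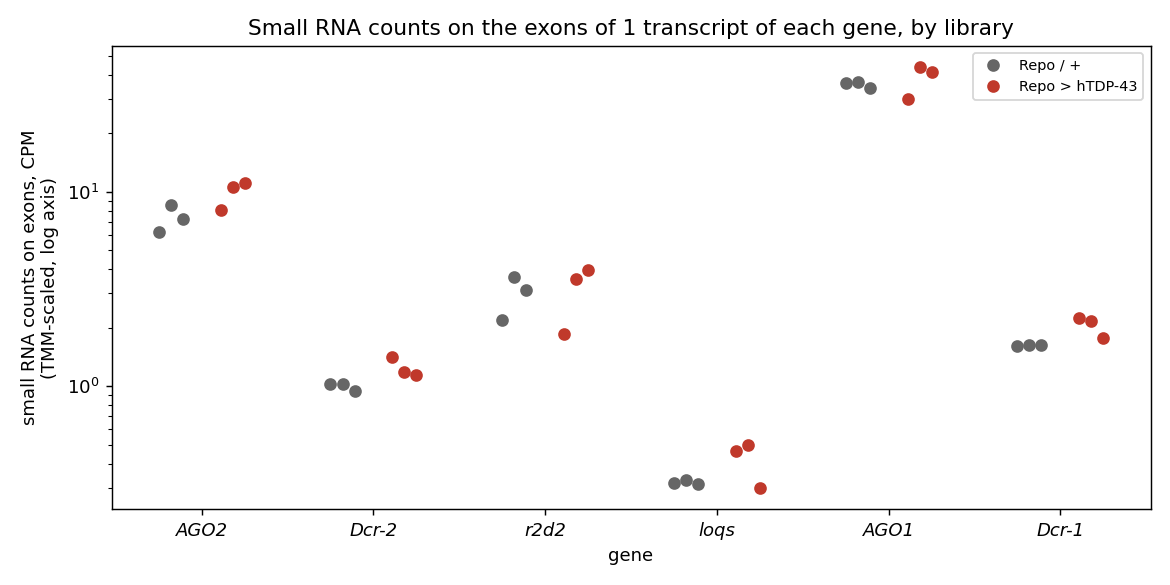
Small RNA counts on the exons of the transcript with the most counts of each gene, in TMM-scaled CPM on a log axis, with a point for each of 3 Repo / + (grey) and 3 Repo > hTDP-43 (red) libraries. AGO1 holds 29.9 to 43.8 CPM and loqs at most 0.497, and the groups overlap for AGO2, r2d2, loqs and AGO1. For Dcr-2 and Dcr-1 the TMM-scaled values do not overlap, while the counts and the CPM by library size do.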

How the data were processed

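RNA was extracted with Trizol from fly heads. The RNA-seq libraries were made with the NuGEN Ovation kit, and small RNAs of 18–29 nucleotides were cloned. The authors mapped paired reads of 101 bases to dm3 with STAR (up to 4 mismatches and 100 alignments), removed ribosomal reads and counted the rest on RefSeq genes and on FlyBase transposons with TEtranscripts. The deposited values are raw counts, per gene for RNA-seq and per annotated row for small RNA. Bowtie and bedtools are also named in the submitters' processing notes. The strand setting and the sharing of reads with several alignments are not given in the sources used here.

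Fits of 4 libraries compared each driver with hTDP-43 / +, and fits of 6 libraries compared the drivers and the small RNA groups, with edgeR 4.0.16 (R 4.3.3, limma 3.58.1), TMM normalization, filterByExpr, the quasi-likelihood test and Benjamini-Hochberg adjustment at 0.05. DESeq2 1.42.0 was an alternative, as were library size alone, upper-quartile scaling, other filters, a threshold of 0.01, other samples in the fit, leaving out each library and, for ratios, a pseudocount of 0.5. Counting small RNA rows with identical counts once was added after the data were seen. The tests were also run on simulated counts with set changes larger than those of the 6 genes, which does not measure power at the sizes seen here.

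All 6 genes were named, and from each pathway list up to 3 past the threshold, by lowest p. The members and lists were chosen with earlier results of these data known. Replicates were not duplicates, and the paper describes the RNA-seq libraries of a genotype as independent and as biological replicates. Whether the replicates came from separate collections of flies is not given, so p-values measure the spread between these libraries. Reads carry no molecular identifiers. Levels were to be divided by coding length, but no lengths were used here, so levels are not compared between genes. Names and neighbours came from a later annotation (Release 6), no coordinates or sequences are printed, and 0 columns were left unused.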

Additional observations from a re-analysis of the deposited data

Results flagged for a closer look

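Repo > hTDP-43 and ELAV > hTDP-43 differed in a direct test for vig (Repo minus ELAV, -0.54 on the log2 scale, adjusted p = 0.00538, edgeR) and for blanks (2.70, adjusted p = 0.0222), which are listed genes outside the 6 members. As given above, neither call held in every fit that left out a library. These fits gave -0.56 to -0.51 for vig and 1.98 to 4.80 for blanks, which had only 2 to 75 counts a library. For vig both Repo > hTDP-43 libraries were below, and for blanks above, all libraries of the other genotypes.

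For 2 ratios within a library every Repo > hTDP-43 library lay on one side of the hTDP-43 / + libraries and every ELAV > hTDP-43 library on the opposite side. The ratio to Dcr-2 did not overlap for 69.9% of all features with Repo > hTDP-43, 47.8% with ELAV > hTDP-43 and 77.4% between the drivers. For the ratio to Dcr-1 these shares were 67.8%, 35.8% and 71.8%. How many features lay on opposite sides was not counted. The ratio of r2d2 to Dcr-2 differed by -0.49 (log2) between the drivers and that of Dcr-2 to Dcr-1 by 0.16. These differences were not tested beyond the exact permutation, whose smallest p with 2 libraries against 2 is 0.333.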

How the results depend on the processing

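No paired analysis was possible because the replicate names are not shared between genotypes. For the 6 genes the number called with Repo > hTDP-43 rose from 0 to 1 in the fit of all 6 libraries (AGO1, -0.24), and between the drivers to 2 with library size alone (AGO2 0.23, Dcr-2 0.35), 1 with upper-quartile scaling (Dcr-2 0.34), 1 with a minimum of 10 counts (Dcr-2 0.28) and 2 in the fit of the 4 driver libraries (Dcr-2 0.23, loqs -0.33). The sign turned for loqs with Repo > hTDP-43 by library size (0.056) and upper quartile (0.016), and for AGO2 with ELAV > hTDP-43 by library size (0.0044). Leaving out each library gave 0 to 1 calls with Repo > hTDP-43, 0 to 1 with ELAV > hTDP-43, 0 to 2 between the drivers and 0 to 1 small RNA rows. With Repo > hTDP-43 it gave -0.29 to 0.070 for loqs, -0.34 to -0.15 for AGO1 and -0.039 to 0.056 for Dcr-1. With ELAV > hTDP-43 it gave -0.015 to 0.19 for r2d2, 0.058 to 0.45 for loqs, -0.14 to 0.00036 for AGO1 and -0.11 to 0.028 for Dcr-1, and between the drivers 0.20 to 0.25 for Dcr-2 and -0.44 to -0.25 for loqs. For small RNAs on the leading exon it gave -0.17 to 0.37 for r2d2, -0.022 to 0.29 for AGO1 and -0.26 to 0.26 for cdc14.

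Over all features, an adjusted p of 0.01 left 1096, 39 and 1410 calls with Repo, with ELAV and between the drivers. The ELAV count was 314 with DESeq2, 195 without a filter and 239 in the fit of 6 libraries. Leaving out each library gave 552 to 6421 (Repo), 32 to 1056 (ELAV), 948 to 4824 (between the drivers) and 1576 to 2810 (small RNA), and small RNA calls were 1639 by library size, 1274 with miRNA-based factors and 1341 with DESeq2. The cause was not tested. The pseudocount moved no ratio by more than the spread between replicates. blanks did not reach a minimum of 10 counts in every library and has no value there.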

Other observations

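The neighbours that overlap AGO2 and r2d2 in the later annotation gave these values. CG7739, beside AGO2, was at 71.2 and 73.0 CPM in S05 and S06, 77.8 and 87.6 in S11 and S12, and 78.9 and 70.1 in S14 and S15 (log2 fold change with Repo > hTDP-43 -0.034). Its exon with the most small RNAs held 225, 216 and 244 counts in Repo / + and 378, 364 and 361 in Repo > hTDP-43 (0.53, SE 0.18, adjusted p = 0.122, or 0.70 and 0.0189 without S22), beside the 147 to 172 and 237 to 306 of the AGO2 exon. cdc14, beside r2d2, was at 141 and 143 CPM in S05 and S06 against 162 to 176 in the other 4 libraries (log2 fold change against hTDP-43 / + -0.24, adjusted p = 0.0836). Whether reads of the overlaps were counted for both genes was not tested.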
